A study of Mus musculus with 54 samples.

Results

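Combined loss of glucose uptake through SGLT1 and SGLT2 was examined in the late proximal tubule of nondiabetic mice by comparing Sglt1 knockout mice given dapagliflozin, an inhibitor of SGLT2, with wild-type mice given vehicle. The libraries were chosen by their genotype and treatment labels: 6 libraries with the knockout and the drug (the dual-block group) and 6 wild-type vehicle libraries (the control group), 12 of the 52 libraries with expression values. All were male DBA mice with the normal insulin gene (Ins2+/+), 14 weeks old, either Sglt1+/+ or Sglt1-/-, and vehicle or dapagliflozin at 10 mg per kg of diet was given for 2 weeks. Each sample pooled 70 to 80 tubules cut out by laser that bound the lectin LTL and lacked SGLT2 protein, from which 0.5 ng of total RNA was made into a library. The study also held nondiabetic knockouts on vehicle, nondiabetic wild types on dapagliflozin (6 libraries each) and littermates diabetic through the Akita mutation (Ins2 Akita/+). Of the Akita groups, the knockouts on dapagliflozin and the wild types on vehicle (6 libraries each) are compared below. The other Akita libraries were 6 knockouts on vehicle, 5 wild types on dapagliflozin and 5 wild types on semaglutide (3 nmol per kg per day). They are not compared but entered the fit, whose estimate of the spread all groups share. Which part of the gene the knockout allele lacks, and whether each sample came from its own animal, are not stated in the sources used here, and p-values measure the spread between samples.

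The proximal tubule takes filtered glucose back from the urine in series. SGLT2, encoded by Slc5a2, works in the early S1 and S2 segments and takes up most of the glucose, while SGLT1, encoded by Slc5a1, works in the late S3 segment and in the intestine and takes up what is left. Blocking SGLT2 sends more glucose on to S3, and blocking both carriers leaves glucose in the urine.

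Values were TPM, a transcript level scaled to gene length and library. Their sum over genes ranged from 984393 to 2253870 per library over the 52 libraries, between 16206 and 18421 genes had a value, and the number of reads is unknown. Changes are differences of log2(TPM + 1), which understate the change of genes near 0. All 12 S3 markers listed were in the table, and their summed TPM had a median of 9404 in the control libraries (range 4573 to 11352) and 9108 in the dual-block libraries (4051 to 11951). Control replicates 1 and 2 and dual-block replicate 3 stood apart in a score over markers of other cell types (4.51, 4.47 and 4.07, against 3.33 to 3.82 in the other 9). The larger shifts of a value without these 3 libraries are given beside it. Replicate 1 of the nondiabetic knockouts on vehicle (4.08) and replicate 1 of the nondiabetic wild types on dapagliflozin (3.93) also scored high. Both were kept throughout, so this exclusion is uneven between the nondiabetic groups. Library-wide measures differed by less than the spread between samples: the sum of TPM, the share of mitochondrial ribosomal RNA (33.0 ± 6.87% with dual block and 33.4 ± 6.57% in controls, SD, n = 6 each), and the S3, S1 and S2, and other-cell scores had 2-sided exact permutation p between 0.372 and 0.879 (adjusted p = 0.879 for each of the 5). The S3 markers include Slc5a1, so the knockout itself lowers the S3 score.

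Dual block changed 3 of 15424 tested genes in S3 tubules (0.0195%, limma, adjusted p under 0.05 over all genes), and all 3 lie on the same stretch of chromosome 5. Slc5a1, the targeted carrier, and Gm43694, an unclassified transcript, fell (0.013% of tested genes), and Abhd1, named for the alpha/beta hydrolase domain, rose (0.00648%). No other gene passed. Without the 3 libraries that stood apart 4 genes passed, the fourth being Hebp1. The median log2 change of all tested genes was 0.01 with quartiles of -0.16 and 0.17. At an unadjusted p under 0.05 there were 873 genes (5.66%), of which 461 were higher (2.99%) and 412 lower (2.67%). The 6 dual-block libraries lay entirely above or entirely below the 6 controls for 26 genes (0.169%), 17 above (0.11%) and 9 below (0.0584%).

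**Figure D1:**
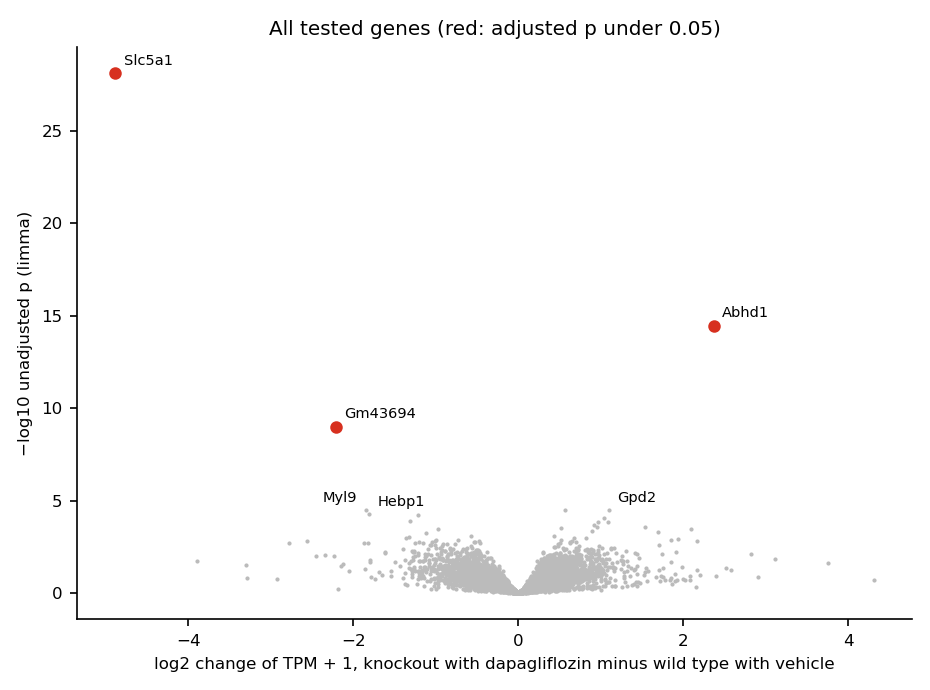
Change of each of the 15424 tested genes with dual block in nondiabetic mice (log2 of TPM + 1, x axis) against −log10 of limma's unadjusted p (y axis), 1 point per gene, with the 3 genes past an adjusted p of 0.05 in red. Slc5a1, Abhd1 and Gm43694 stand apart from a cloud that includes Gpd2, Myl9 and Hebp1.

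Slc5a1 (ENSMUSG00000011034, chr5:33104219-33162870, plus strand, GRCm38), the S3 sodium-glucose carrier, checks the genotype labels. In the control libraries it ranged from 27.3 to 74.5 TPM (median 60.8), and in the dual-block libraries from 0.314 to 1.34 TPM (median 0.842). Every dual-block library lay far below every control, with means of 0.828 ± 0.378 and 55.01 ± 18.6 TPM (SD, n = 6 each), a 66.5-fold difference. The log2 change was -4.88 (SE 0.20, 95% interval -5.28 to -4.48, limma adjusted p = 1.12e-24). With dapagliflozin alone the interval of the difference of Slc5a1 held 0 in either genotype: it was log2 0.27 (-0.13 to 0.67) in wild types and 0.03 (-0.38 to 0.43) in knockouts.

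The 250 bases before the RefSeq start of Slc5a1 (chr5:33103969-33104218, plus strand, GRCm38.p6) are shown because they lie upstream of the knocked-out gene. Whether they act as its promoter, or had a part in its fall, was not tested. The capitals mark CACGTG, the E-box letters that many basic helix-loop-helix factors read, which lie 143 bases before the start and occur in 1978 of 32851 such windows (6.02%, both strands counted). The GC-box letters GGGCGG occur in 32.7% of windows, the TATA-box letters TATAAA in 12.4% and the letters CCAAT in 33.8% (both strands), and none of these was in the window shown.
Slc5a1 upstream: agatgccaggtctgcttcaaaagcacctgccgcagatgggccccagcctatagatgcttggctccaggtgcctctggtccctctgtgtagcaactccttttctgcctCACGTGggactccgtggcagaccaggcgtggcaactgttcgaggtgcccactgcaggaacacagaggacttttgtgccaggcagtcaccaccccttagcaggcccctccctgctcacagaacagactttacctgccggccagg

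Slc5a2, the carrier that dapagliflozin blocks, is a marker of the segments the dissection was meant to leave out. It ranged from 4.55 to 161 TPM in the control libraries (median 27.8) and from 5.33 to 191 TPM in the dual-block libraries (median 12.6). The groups overlapped over nearly their whole range, and the highest value of each came from a library that stood apart in other-cell markers, control replicate 1 and dual-block replicate 3. The log2 difference was -0.62 (SE 0.86, 95% interval -2.36 to 1.13, limma adjusted p = 0.998). It was -0.34 without the 3 libraries that stood apart, and single libraries moved it between -1.27 (without dual-block replicate 3) and -0.14 (without control replicate 1). Among the S1 and S2 markers, 3 of 12 were above 0 with a median log2 change of -0.16, and the median without the 3 libraries was 0.23. In bulk tubules, fewer cells of a type and less RNA per cell cannot be told apart.

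Abhd1 (ENSMUSG00000006638, chr5:30950066-30955091, plus strand) was the gene that rose. It ranged from 3.86 to 10.4 TPM in the controls (median 5.79) and from 20.4 to 59.3 TPM with dual block (median 35.2). The groups were separated by a clear gap, and the means were 6.21 ± 2.23 and 37.9 ± 16.6 TPM (SD, n = 6 each), a 6.10-fold rise. The log2 change was 2.37 (SE 0.21, 95% interval 1.95 to 2.79, limma adjusted p = 2.66e-11). Abhd1 overlaps Preb, a guanine nucleotide exchange factor of vesicle budding, which is read from the other strand: 1575 of the 1758 exonic bases of Abhd1 lie in Preb exons, and 1442 of its 1899 31-base words (75.9%) occur in the opposite strand of Preb transcripts and in no other gene. The GENCODE M21 annotation used here gives Abhd1 0 coding bases. The kit kept the strand, per the labels, but whether the authors counted by strand is not stated in the sources used here, and reads from the pair may not be separable. Preb itself was at 155 ± 50.6 TPM in controls and 135 ± 16.5 TPM with dual block (SD, n = 6 each), a log2 difference of -0.15 (limma adjusted p = 0.990).

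Gm43694 (ENSMUSG00000107018, chr5:32629842-32630960, plus strand), which GENCODE lists as a transcript still to be tested by experiment, lies inside Yes1, a Src family kinase gene on the same strand, without sharing any of its exonic bases. The controls ranged from 3.10 to 7.33 TPM (median 5.30), and with dual block 3 libraries were listed at 0 and the others at 0.148, 0.654 and 1.90 TPM. The groups did not overlap, and the mean fell from 5.31 ± 1.55 to 0.449 ± 0.752 TPM (SD, n = 6 each). The log2 change was -2.21 (SE 0.29, 95% interval -2.80 to -1.62, limma adjusted p = 5.06e-06). Its host Yes1 had a log2 difference of -0.06, from 19.4 ± 3.999 to 18.8 ± 5.12 TPM (SD, n = 6 each).

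The start of Gm43694 (chr5:32629842-32630021, plus strand, GRCm38) is shown because most of its letters also occur in transcripts of other genes. Of its 1089 31-base words, 1058 (97.2%) occur in transcripts of 296 other genes, a median of 12 genes per word and at most 134. Capitals mark bases in words found in at least 10 other genes, 163 of the 180 printed and 962 of all 1119. Its level is therefore uncertain, since how the authors assigned reads that match several genes is not given in the sources used here.
Gm43694 start: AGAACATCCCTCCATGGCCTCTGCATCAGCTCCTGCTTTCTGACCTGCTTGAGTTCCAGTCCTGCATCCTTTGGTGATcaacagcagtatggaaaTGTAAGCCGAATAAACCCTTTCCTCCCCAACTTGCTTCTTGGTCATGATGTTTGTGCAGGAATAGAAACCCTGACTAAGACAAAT

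**Figure D2:**
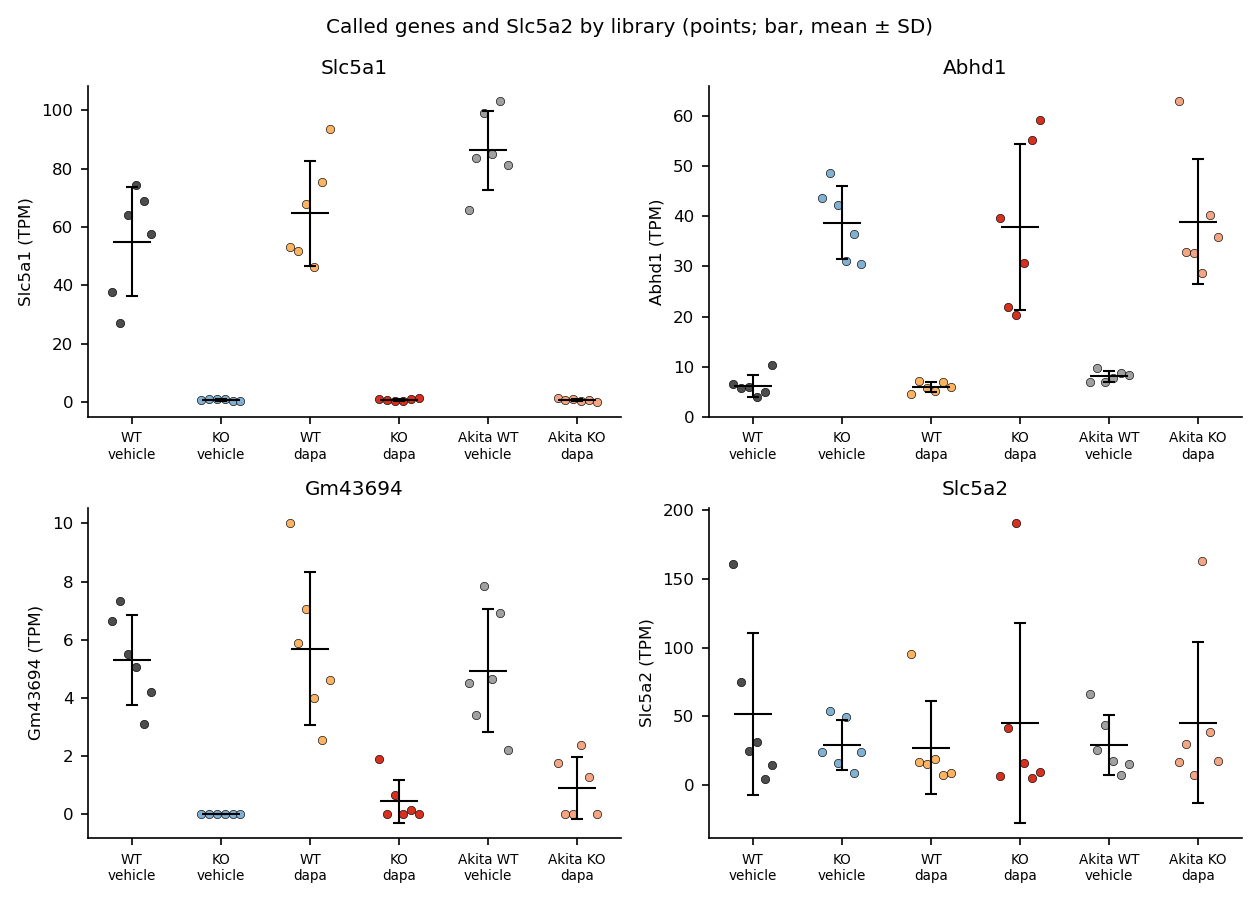
TPM of Slc5a1, Abhd1, Gm43694 and Slc5a2 in each library of 6 groups, with the mean and SD (n = 6 each). Both knockout groups of the nondiabetic mice and the Akita knockouts on dapagliflozin lie near 0 for Slc5a1 and between 20.4 and 63.0 TPM for Abhd1, while Slc5a2 varies within every group.

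The knockout and the drug were separated with the other nondiabetic groups, which share libraries with the dual-block comparison. Abhd1 was at 38.7 ± 7.31 TPM in knockouts on vehicle and 5.93 ± 0.998 TPM in wild types on dapagliflozin (SD, n = 6 each). The 2 groups differed from the same controls by log2 2.49 (95% interval 2.07 to 2.91) and -0.02 (-0.44 to 0.40). Gm43694 was listed at 0 in all 6 knockouts on vehicle and ranged from 2.57 to 10.0 TPM in wild types on dapagliflozin, where the log2 difference from controls was 0.03 (-0.56 to 0.62). Adding dapagliflozin in knockouts moved Abhd1 by log2 -0.12 (-0.55 to 0.30) and Gm43694 by 0.41 (-0.18 to 1.00). The shift of each called gene was thus already present in knockouts that had received no drug.

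Genome-wide, the knockout step on vehicle called 3 genes in limma (0.0195%), which were Slc5a1, Abhd1 and Gm43694. The knockout step under dapagliflozin called 5 (0.0324%): besides these 3, Cgref1, a secreted growth regulator with EF-hand domains (log2 -0.95, adjusted p = 0.0319), and Dnttip1, a subunit of a histone deacetylase complex (log2 -1.05, adjusted p = 0.0456), were lower, and both were lost without the 3 libraries that stood apart. Dapagliflozin in wild types called 1 gene (0.00648%), the predicted gene Gm6999 (log2 1.13, limma adjusted p = 0.00397), which was lost with array weights. Limma called 0 genes for dapagliflozin in knockouts, where 731 had an unadjusted p under 0.05 (4.74%). The test of whether the 2 steps add up on the log2 scale gave 0 calls by limma and 890 genes at an unadjusted p under 0.05 (5.77%). Without the 3 libraries that stood apart, these counts were 5, 3, 1, 0 and 1 in the same order. Knockouts on vehicle and wild types on dapagliflozin kept all their libraries in these fits.

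The neighbourhood of Slc5a1 was described because the called genes cluster there. Of 165 tested genes within 10 Mb of its start, 3 were called, 7 were higher and 8 lower at an unadjusted p under 0.05, and the median log2 change was 0.02. On the whole of chromosome 5, 29 of 1066 tested genes were higher and 27 lower at that level, shares close to the genome-wide 2.99% and 2.67%. Within the 10 Mb window both shares were above these genome-wide values. The window was described for the called genes and its shares count them, so this excess is not a separate result. Abhd1 lies 2.15 Mb and Gm43694 0.474 Mb before the start of Slc5a1. None of the following neighbours passed in the dual-block comparison. Gm15936, a processed pseudogene inside Slc5a1, ranged from 0 to 3.81 TPM in controls and was listed at 0 in all 6 dual-block libraries (log2 -1.26, SE 0.43, limma adjusted p = 0.765). Tyms, which makes thymidylate for DNA synthesis, was at 7.06 ± 3.57 TPM in controls and 2.52 ± 1.78 TPM with dual block (SD, n = 6 each), a log2 difference of -1.20 (SE 0.36, limma adjusted p = 0.606). Its differences were -1.10 in knockouts on vehicle, 0.34 in wild types on dapagliflozin and -1.53 with dual block in Akita mice. Cgref1 was at 162 ± 49.6 and 111 ± 28.2 TPM (SD, n = 6 each), a log2 difference of -0.53 (SE 0.19, limma adjusted p = 0.765).

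**Figure D3:**
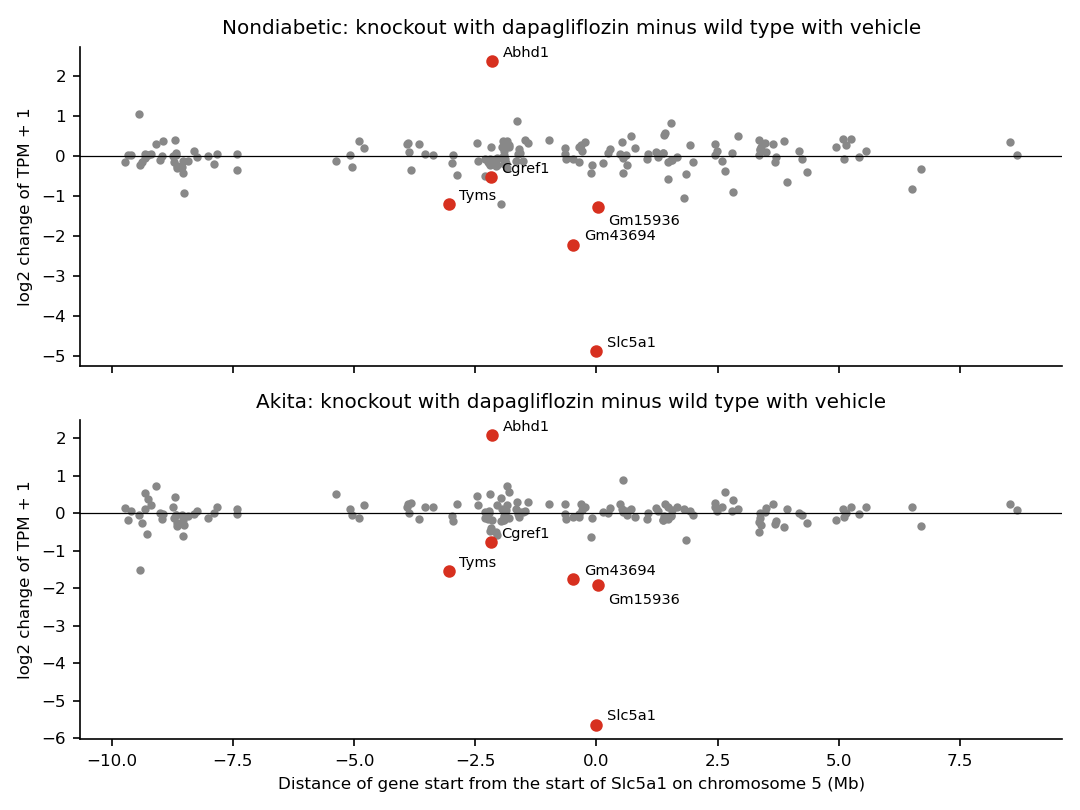
Log2 change of TPM + 1 with dual block (y axis) for each tested gene within 10 Mb of the start of Slc5a1, by distance in Mb (x axis), in nondiabetic mice (top) and Akita mice (bottom), with 6 named genes in red. Slc5a1 and Abhd1 stand apart from their neighbours in both panels, while in Akita mice Gm15936 (-1.92) lies below Gm43694 (-1.75).

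The higher genes with the smallest p after Abhd1 did not pass the test and are given as values. Gpd2, the mitochondrial glycerol-3-phosphate dehydrogenase that hands electrons from cytosolic glycerol phosphate to the respiratory chain, ranged from 20.9 to 52.97 TPM in controls (median 42.2) and from 40.6 to 136 TPM with dual block (median 78.9). The ranges overlapped at their edges, and the means were 39.8 ± 11.6 and 89.7 ± 36.6 TPM (SD, n = 6 each), a 2.25-fold difference and log2 1.10 (SE 0.24, 95% interval 0.62 to 1.59, limma adjusted p = 0.0832). Knockouts on vehicle had 51.5 ± 8.77 TPM and wild types on dapagliflozin 81.5 ± 21.8 TPM of Gpd2 (SD, n = 6 each). Gpd2 passed in 4 alternatives, among them the sum of TPM as a covariate (limma adjusted p = 0.0107) and the fit without dual-block replicate 3 (limma adjusted p = 0.00471), while without dual-block replicate 6 its limma adjusted p was 0.341.

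Ralgapa2, a subunit of the GTPase-activating complex for Ral proteins, ranged from 39.8 to 55.2 TPM in controls and from 46.9 to 84.6 TPM with dual block (log2 0.57, SE 0.12, limma adjusted p = 0.0832). Nras, a small GTPase of growth factor signalling, ranged from 3.89 to 14.5 TPM and from 11.6 to 35.7 TPM (log2 1.04, SE 0.24, limma adjusted p = 0.154). In both genes the highest controls reached into the dual-block range. Nrg1, a ligand of the ErbB receptors, ranged from 30.5 to 67.1 TPM in controls and from 64.3 to 139 TPM with dual block (log2 0.97, 95% interval 0.50 to 1.45, limma adjusted p = 0.192). Atg12, which is joined to Atg5 when autophagosomes form, did not overlap between the groups, with 11.1 to 16.4 TPM in controls and 18.3 to 23.3 TPM with dual block, and had log2 0.51 (0.25 to 0.78, limma adjusted p = 0.278). Bbs10, a chaperonin-like protein of the Bardet-Biedl syndrome (log2 1.09), Dcakd (0.95), and Zfp354a, a zinc finger protein of kidney (0.90), had limma adjusted p of 0.192, 0.278 and 0.347. Muc1, an apical mucin that is abundant in the distal nephron and collecting duct, was at 2.95 ± 2.81 and 10.3 ± 7.19 TPM (SD, n = 6 each), log2 1.54 (0.75 to 2.32, limma adjusted p = 0.278). Beside it, 9 of 12 collecting duct markers were above 0 with a median log2 change of 0.31 (0.57 without the 3 libraries), and their part in the value of Muc1 was not tested.

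Among the named lower genes that did not pass, Myl9, a regulatory light chain of smooth muscle myosin, had the smallest p. It ranged from 3.95 to 44.6 TPM in controls (median 12.1) and from 0.337 to 8.13 TPM with dual block (median 2.39), with the single value of 44.6 TPM in control replicate 1. Its log2 difference was -1.85 (SE 0.40, limma adjusted p = 0.0832), and without the 3 libraries that stood apart it was -1.26 (limma adjusted p = 0.519). Markers of stroma and smooth muscle were lower beside it: 3 of 14 were above 0, 6 were lower at an unadjusted p under 0.05 (2.67% over all tested genes), the median was log2 -0.51 (-0.04 without the 3 libraries), and their summed TPM ranged from 159 to 747 in controls and from 149 to 248 with dual block. None of the stromal markers tested was at 0 in all libraries, and their part in the value of Myl9 was not tested.

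Hebp1, a heme-binding protein, ranged from 9.73 to 32.5 TPM in controls (median 21.7) and from 3.55 to 11.1 TPM with dual block (median 4.14). Only the highest dual-block library (replicate 3) and the lowest control library (replicate 2), both among the 3 that stood apart, crossed, and the means were 21.6 ± 7.45 and 5.54 ± 2.98 TPM (SD, n = 6 each). The log2 difference was -1.81 (SE 0.41, 95% interval -2.63 to -0.99, limma adjusted p = 0.115), and without the 3 libraries it passed at -2.28 (limma adjusted p = 0.0454). Knockouts on vehicle had 16.9 ± 6.90 TPM and wild types on dapagliflozin 21.9 ± 12.02 TPM of Hebp1 (SD, n = 6 each), so the values of either single block lay nearer to the controls. The departure of Hebp1 from additivity was log2 -1.27 (95% interval -2.42 to -0.11) and did not pass over all genes (limma adjusted p = 0.860).

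Azgp1, the secreted zinc-alpha-2-glycoprotein, ranged from 54.6 to 177 TPM in controls and from 24.0 to 114 TPM with dual block (log2 -1.31, limma adjusted p = 0.192). Zmynd19, a zinc finger protein of the MYND type, did not overlap, with 4.92 to 11.5 TPM in controls and 0.909 to 3.62 TPM with dual block (log2 -1.21, limma adjusted p = 0.115). Both passed with the other-cell score as a covariate (limma adjusted p = 0.0412 and 0.0441). The remaining lower genes by this ranking were Dzip1 (log2 -0.97), Zmat5 (-1.11), Uba2, a subunit of the enzyme that activates SUMO (-0.57), Ankrd13d (-1.33) and Rfxap, a subunit of the factor that drives MHC class II genes (-1.36), with limma adjusted p between 0.297 and 0.606. The 18 genes named in these paragraphs as ranked by p had a median size of log2 1.10, against a median absolute change of 0.17 over all tested genes, a gap that their selection fixes.

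**Figure D4:**
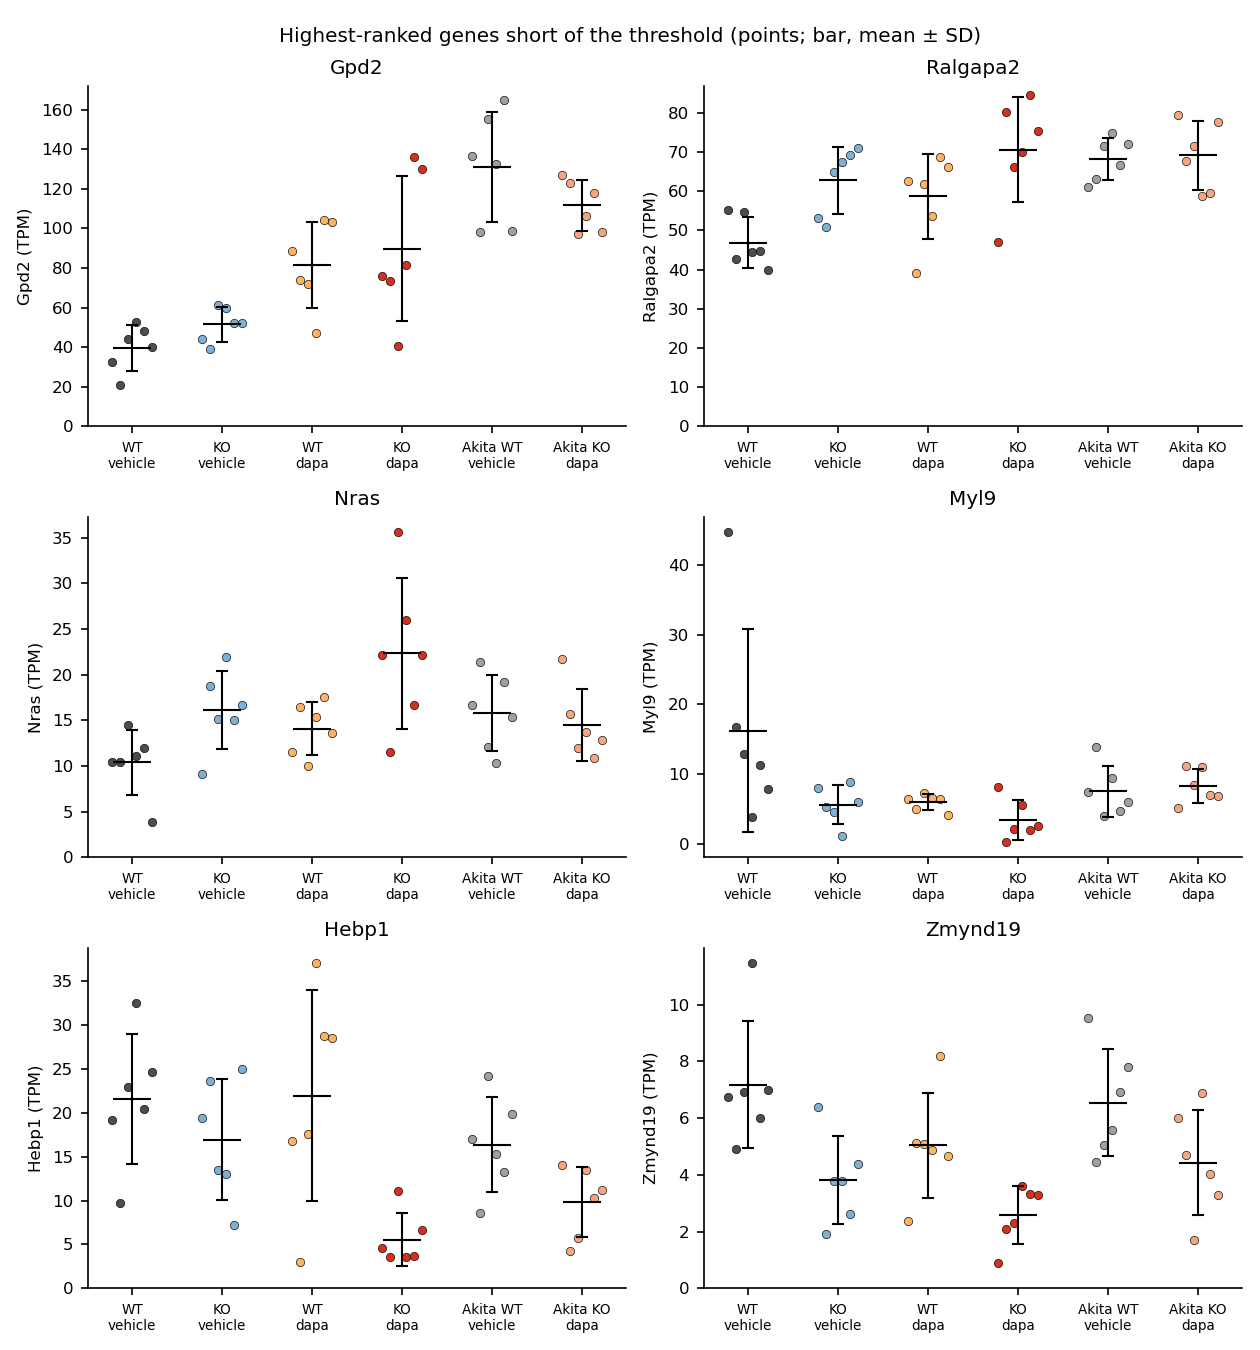
TPM of Gpd2, Ralgapa2, Nras, Myl9, Hebp1 and Zmynd19, genes with small p that did not pass in the dual-block comparison, in each library of 6 groups with the mean and SD (n = 6 each). Control replicate 1 sets the top of Myl9 at 44.6 TPM, and Gpd2 is high in the Akita controls (131 ± 27.9 TPM).

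The glucose and related carriers other than Slc5a1 did not pass the test. Of the 13 tested carriers on the list, 7 were above 0 and the median log2 change was 0.17. Slc5a10, a sodium-coupled mannose and fructose carrier of kidney, ranged from 231 to 788 TPM in controls (median 413) and from 307 to 1099 TPM with dual block (median 706). The ranges overlapped widely, and the log2 difference was 0.72 (SE 0.28, 95% interval 0.17 to 1.28, limma adjusted p = 0.791). Slc5a10 was at 424 ± 123 TPM in knockouts on vehicle and 685 ± 209 TPM in wild types on dapagliflozin (SD, n = 6 each), log2 differences of 0.00 and 0.70 from the same controls. Slc2a2, the basolateral glucose exit carrier GLUT2, was at 16.0 ± 10.95 and 17.7 ± 4.97 TPM (SD, n = 6 each), log2 0.36 (-0.28 to 1.00). The value of Slc2a2 was 0.81 without the 3 libraries, and without single libraries it lay between 0.11 (control replicate 6 left out) and 0.63 (control replicate 1 left out). Slc2a1, the basolateral carrier GLUT1 of late segments, was at 22.5 ± 7.81 and 22.6 ± 9.72 TPM (SD, n = 6 each), with a difference bounded by log2 -0.40 and 0.39. Its value in wild types on dapagliflozin was lower than in controls by log2 -0.61 (-0.998 to -0.21), and its departure from additivity was 0.82 (0.27 to 1.38, limma adjusted p = 0.860). Slc2a5, the fructose carrier GLUT5, had log2 0.29 (-0.42 to 1.00) and Slc2a9, the urate carrier GLUT9, log2 0.43 (-0.21 to 1.06). The inositol and monocarboxylate carriers Slc5a3, Slc5a8, Slc5a11 and Slc5a12 and the mannose carrier Slc5a9 had log2 differences between -0.32 and 0.22.

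In the pathways that handle sugar inside the cell, 0 genes were called. Gluconeogenesis, for which the proximal tubule is the main renal site, had 6 of 15 tested genes above 0 and a median log2 change of -0.01. Glutamate dehydrogenase, Glud1, was at 204 ± 40.2 and 156 ± 36.0 TPM (SD, n = 6 each), log2 -0.40 (-0.82 to 0.03). The glycolysis and citrate cycle list had 12 of 24 above 0 (median 0.01), and the ChREBP list, targets of the sugar-sensing factor encoded by Mlxipl, 6 of 11 (median 0.02). Ketohexokinase, Khk, which commits fructose to metabolism, was at 346 ± 118 and 398 ± 108 TPM (SD, n = 6 each), and Mlxipl at 950 ± 384 and 1015 ± 239 TPM (SD, n = 6 each), log2 0.23 and 0.16, which were 0.02 and 0.04 without the 3 libraries. In the polyol and fructose list 8 of 9 genes were above 0 with a median of 0.21.

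Lipid pathways had medians below 0 and no called gene. Of 21 tested genes of cholesterol and fatty acid synthesis, 3 were above 0 and the median log2 change was -0.15. Fdps, a step of the mevalonate pathway, was at 21.97 ± 9.99 and 14.6 ± 5.49 TPM, and Scd1, the stearoyl desaturase, at 137 ± 73.1 and 74.9 ± 41.7 TPM (SD, n = 6 each), with intervals of log2 -1.20 to 0.08 and -1.95 to 0.30. The log2 difference of Fdps was -0.56, and -0.94 without the 3 libraries. Fatty acid oxidation and other PPAR alpha targets had 8 of 23 above 0 and a median of -0.09, which was 0.08 with array weights and -0.22 without the 3 libraries. Acaa1b, a peroxisomal thiolase, was at 148 ± 34.2 and 107 ± 33.2 TPM (SD, n = 6 each), log2 -0.49 (-0.96 to -0.03, limma adjusted p = 0.877). Ketone body genes had 5 of 11 above 0 and a median of -0.03.

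The transport work of the tubule showed no called gene outside the glucose carriers. Sodium transport had 12 of 22 tested genes above 0 (median log2 0.02), amino acid transport 7 of 18 (-0.02), organic anion and drug transport 9 of 24 (-0.01), and megalin-dependent endocytosis 6 of 14 (-0.03). Slc34a2, a sodium phosphate carrier, was at 10.3 ± 4.04 and 14.3 ± 2.67 TPM (SD, n = 6 each), log2 0.50 (0.06 to 0.94, limma adjusted p = 0.826), and 0.23 without the 3 libraries. Cytochrome P450 genes had 7 of 19 above 0 (median -0.05), the renin-angiotensin list 5 of 8 (0.03), and transcription factors of the proximal tubule 8 of 12 (0.11).

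Stress and growth lists held single genes with intervals that excluded 0 before adjustment, and 0 passed. Cdkn1a, the p53-induced cell cycle inhibitor p21, was at 0.870 ± 0.722 and 2.47 ± 1.22 TPM (SD, n = 6 each), log2 0.89 (0.21 to 1.57, limma adjusted p = 0.791), in a p53 list with 11 of 13 genes above 0 and a median of 0.19. Mki67, a marker of cycling cells, was at 1.06 ± 0.484 and 3.84 ± 2.40 TPM (SD, n = 6 each), log2 1.12 (0.37 to 1.87, limma adjusted p = 0.752), while the cell cycle list had 8 of 13 above 0 (median 0.07, and 0.19 without the 3 libraries). Epas1, the hypoxia-inducible factor HIF-2 alpha, which is rich in endothelium and stroma, was at 71.5 ± 23.2 and 51.7 ± 15.4 TPM (SD, n = 6 each), log2 -0.45 (-0.78 to -0.12), and -0.15 without the 3 libraries. Vim, a filament protein of stroma and injured tubules, had log2 -0.80 (-1.46 to -0.15), and -0.12 without the 3 libraries. Krt18, another member of the tubule injury list, went the other way, with log2 between 0.80 and 1.19 without single libraries. The hypoxia list had 9 of 18 above 0 (median 0.02), the tubule injury list 9 of 17 (0.03), and NRF2 targets 9 of 19 (-0.01). Without the 3 libraries the last 2 medians were 0.24 and -0.16.

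Energy sensing and autophagy genes had 14 of 19 above 0 and a median log2 change of 0.13, with Sirt1, an NAD-dependent deacetylase, at 13.0 ± 2.41 and 17.7 ± 4.84 TPM (SD, n = 6 each), log2 0.40 (0.09 to 0.72), and 0.26 without the 3 libraries. Interferon-response and antigen presentation genes had 20 of 26 above 0 and a median of 0.14, which was -0.10 without the 3 libraries. The unfolded protein and integrated stress response list had 5 of 17 above 0 (median -0.11, and 0.04 with array weights), and immediate early genes 4 of 18 (-0.12). Cytosolic ribosomal protein genes had 1 of 28 above 0 and a median of -0.17 (-0.40 without the 3 libraries), among them Rpl5 at 235 ± 64.9 and 189 ± 48.7 TPM (SD, n = 6 each). The 13 mitochondrially encoded protein genes had 10 above 0 and a median of 0.16, which was -0.13 without the 3 libraries, and nuclear-encoded respiratory genes had 7 of 24 above 0 (median -0.07, and -0.24 without the 3 libraries). Core clock genes had 10 of 16 above 0 (median 0.04, and 0.16 without the 3 libraries). These lists stand beside a share of 51.9% above 0 over all tested genes, and members of a list share libraries, so a list whose members lean one way is a description of these 12 libraries.

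**Figure D5:**
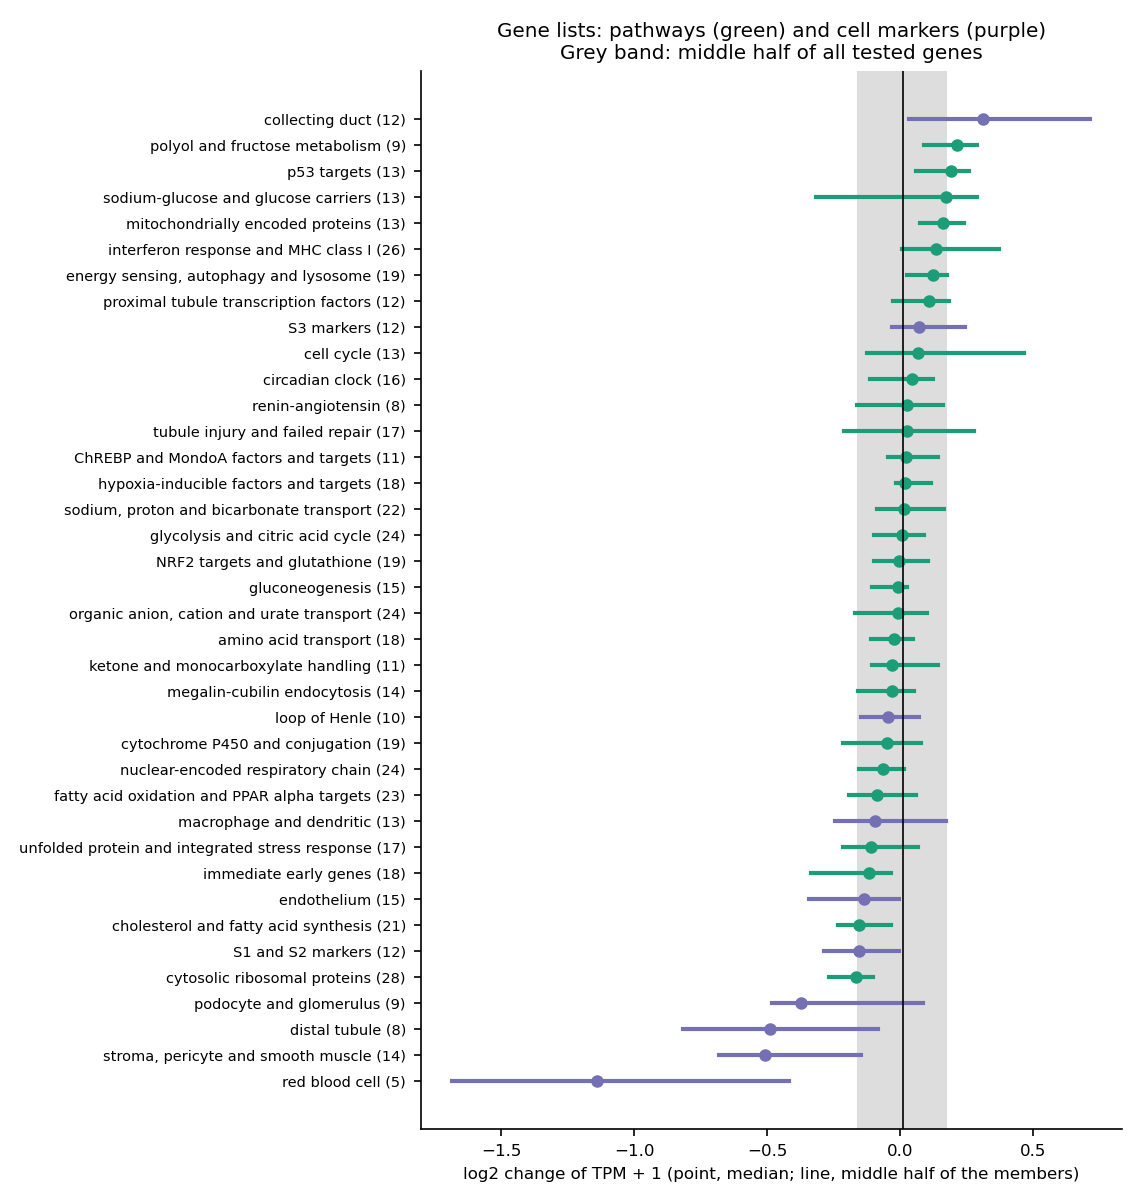
Median log2 change of TPM + 1 with dual block for each gene list (points) with the quartiles of its members (bars), beside the band between the quartiles of all tested genes (-0.16 to 0.17). Most list medians lie inside the band.

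Markers of other cell types moved unevenly with the groups. Besides the stromal markers, red blood cell markers had 1 of 5 above 0 (median log2 -1.14), podocyte markers 4 of 9 (-0.37), distal tubule markers 2 of 8 (-0.49), endothelial markers 4 of 15 (-0.13), macrophage markers 6 of 13 (-0.10) and loop of Henle markers 3 of 10 (-0.05). S3 markers, Slc5a1 among them, had 8 of 12 above 0 and a median of 0.07. These medians rested on few libraries: without the 3 that stood apart they were 0.05 for podocyte, -0.11 for distal tubule, -0.02 for endothelial, 0.08 for macrophage and -0.01 for S3 markers. Leaving out single libraries moved the loop of Henle median between -0.37 (without dual-block replicate 3) and 0.33 (without control replicate 2). The red blood cell median moved between -1.50 (without control replicate 1) and -0.59 (without control replicate 2). The red blood cell sums ranged from 7.94 to 148 TPM in controls and from 4.70 to 18.8 TPM with dual block. The part of these cells in the values above was not tested beyond the covariate and the fits without the 3 libraries.

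Dual block in diabetic Akita mice, made with 12 other libraries, called 5 genes in limma (0.0324%). Slc5a1 fell from 86.2 ± 13.5 to 0.776 ± 0.396 TPM (SD, n = 6 each), log2 -5.64. Abhd1 rose from 8.06 ± 1.08 to 38.9 ± 12.4 TPM (SD, n = 6 each), log2 2.10 with a limma adjusted p of 1.61e-09. Gm43694 fell from 4.94 ± 2.12 to 0.906 ± 1.05 TPM (SD, n = 6 each), log2 -1.75 with a limma adjusted p of 0.00128. All 3 genes called in nondiabetic mice thus changed in the same direction in separate libraries. The other called genes were Snord1c, a small nucleolar RNA (log2 -4.57, limma adjusted p = 0.0375), and Phlda3, a p53-induced repressor of Akt (log2 -1.90, limma adjusted p = 0.0390), both of which were lost when any 1 of 9 of the 12 Akita libraries was left out. Of the 18 ranked genes, 13 had the same sign in Akita mice, their median size was log2 0.18, and 0 had an unadjusted limma p under 0.05 there (background 5.01%).

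The difference of the dual-block change between nondiabetic and Akita mice was tested for every gene, and limma called 0, with 721 at an unadjusted p under 0.05 (4.67%). Phlda3 had log2 0.06 in nondiabetic mice and a difference of 1.96 (0.85 to 3.07, limma adjusted p = 0.640). The p53 list had 1 of 13 genes above 0 with a median of -0.39 in Akita mice, and 8 of its 13 genes were lower there at an unadjusted p under 0.05 (background 2.5%). Ccng1, the p53-induced cyclin G1, was at 33.5 ± 12.4 and 44.2 ± 10.3 TPM in nondiabetic controls and dual block, and at 90.95 ± 15.1 and 45.8 ± 6.25 TPM in the Akita groups (SD, n = 6 each), a difference between the changes of log2 1.40 (0.72 to 2.09, limma adjusted p = 0.451). Gpd2 had log2 1.10 in nondiabetic and -0.21 in Akita mice, where its controls were at 131 ± 27.9 TPM, and the difference was 1.31 (0.63 to 2.00, limma adjusted p = 0.640). Slc5a10 had 0.72 and -0.37, a difference of 1.09 (0.31 to 1.88, limma adjusted p = 1.00). In Akita mice the polyol and fructose list had 3 of 9 above 0 (median -0.26), the mitochondrially encoded genes 0 of 13 (-0.85), the ribosomal proteins 0 of 28 (-0.29) and the interferon list 23 of 26 (0.19).

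The precision of the comparison limits what a missing call can show. The 95% interval of a gene's log2 change reached a median of 0.50 to each side, and 0.70, 0.51 and 0.36 for genes with mean levels of 1 to 4, 4 to 32 and at least 32 TPM. For 11800 genes (76.5%) the interval lay within -1 to 1, that is, a doubling or halving of TPM + 1 lay outside it. For the other genes, the called ones among them, the interval reached past -1 or 1.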

How the data were processed

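RNA of laser-captured mouse S3 tubules was profiled in 54 samples, of which 52 have a column in the deposited table. The name of the deposited table carries the words removed outlier. What was removed, and by what rule, is not stated in the sources used here. The authors deposited log10 values of TPM on build GRCm38, per the submitters' processing notes and the file headers. What aligner, counter, annotation and strand setting were used, and how many reads each library had, is not stated in the sources used here. Libraries were made with a stranded SMARTer kit, per the labels' protocols. Here values were turned back to TPM, blank cells (7.02%) were taken as 0, and of 19068 genes the 15424 whose mean reached 1 TPM were kept. Positions came from GENCODE M21, which matched 19033 identifiers.

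Log2(TPM + 1) was fitted with 9 group means over all 52 libraries with limma (version 3.58.1, R 4.3.3), using eBayes with its trend and robust options, after reading by the package data.table (version 1.17.8), and p-values were adjusted by Benjamini-Hochberg over all tested genes with a threshold of 0.05. All adjusted p in the text are limma's. The code was tested on simulated data. Library measures were compared by exact permutation tests, 2-sided, over the 924 splits of 12 libraries, with a smallest possible p of 0.00216. Tables and figures used Python 3.11.15, pandas 2.3.3, numpy 2.4.6 and matplotlib 3.10.9. Upstream letters came from RefSeq windows of 250 bases (GRCm38.p6), and 31-base words from GENCODE M21 transcripts.

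Genes were named by rule: Slc5a1 and Slc5a2, called genes, up to 10 genes each way by smallest p without predicted genes, all tested glucose carriers, and up to 4 members of each list by smallest p. One gene that the rule gives is not reported here. Gm43694 (a called gene), Preb, Yes1, Gm15936, Tyms and Cgref1 in the neighbourhood description and the lists' Khk, Mlxipl, Phlda3 and Ccng1 were in part chosen after their values were seen. The comparison and the gene lists were chosen with earlier results of these data known, so lists carry counts and medians and no test. Replicates were numbered in label order. Alternatives were a pseudocount of 0.1, other filters, rescaling, array weights, fewer groups in the fit, covariates and left-out libraries. Leaving out the 3 libraries rich in markers of other cell types was chosen after seeing the data, from an earlier look at them.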

Additional observations from a re-analysis of the deposited data

Results flagged for a closer look

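In 7 of the 54 groups of 6 libraries examined, 1 library lay so far from the other 5 that its gap to the nearest exceeded Dixon's critical value (0.625 of the range). Chance alone flags about 1 in 20 groups where values follow a normal distribution. Genes were examined as TPM without a log, and the groups examined share the same libraries, so this rate may not hold here. Dual-block replicate 3 held 191 TPM of Slc5a2, against at most 41.5 TPM in the other dual-block libraries, and had the lowest S3 marker score of its group, 6.31 against 7.23 or more. Control replicate 1 held 44.6 TPM of Myl9, with the next control at 16.8 TPM, and 5.26 TPM of Zmat5, with the next at 11.8 TPM. Control replicate 4 held 11.5 TPM of Zmynd19, with the next at 6.997 TPM. Dual-block replicate 2 held 1.10 TPM of Zmat5, with the next at 5.04 TPM. Dual-block replicate 1 held 1.90 TPM of Gm43694, with the next at 0.654 TPM.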

How the results depend on the processing

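Slc5a1 and Abhd1 passed limma's adjusted test in all 27 alternatives, and Gm43694 in the 26 in which it was tested, since it falls below the stricter filter of a mean of at least 5 TPM. Leaving out single libraries moved their log2 changes between -5.06 and -4.78, 2.22 and 2.52, and -2.43 and -2.12. The number of called genes in the dual-block comparison was 5 with the other-cell score as a covariate (adding Azgp1 and Zmynd19), 2 with the stricter filter, 3 or 4 in every other alternative that kept all libraries or left out the 3 that stood apart, and 3 to 5 without single libraries (5 without dual-block replicate 1, adding Myl9 and Ralgapa2). With array weights the counts were 9 for Akita mice, 0 for dapagliflozin in wild types and 3 for the knockout step under dapagliflozin, and with a pseudocount of 0.1 the Akita count was 3. Without the 3 libraries, which was chosen after seeing the data, the counts were 5 for the knockout step on vehicle (adding Gng5 and Phf11d), 3 for that under dapagliflozin, and 1, Gm6999, for the departure from additivity. Without single libraries the counts ranged from 1 to 4 for dapagliflozin in wild types (4 without control replicate 6), from 3 to 10 for the knockout step under dapagliflozin (10 without dual-block replicate 5, 3 without dual-block replicate 3 or wild-type dapagliflozin replicate 4 or 6), from 0 to 2 for the departure from additivity (2 without control replicate 5 or wild-type dapagliflozin replicate 3, and 1 without control replicate 1, wild-type dapagliflozin replicate 5 or dual-block replicate 2 or 4), and from 3 to 6 for Akita mice (3 without wild-type vehicle replicate 3, 4 or 6 or knockout dapagliflozin replicate 2, 3, 5 or 6). Without any single library the counts were 3 for the knockout step on vehicle and 0 for dapagliflozin in knockouts and for the difference between nondiabetic and Akita mice. Library measures (dual block minus control) ranged without single libraries from -146006 to 48033 for the sum of TPM, -2.26 to 1.13 percentage points for mitochondrial rRNA, -0.46 to 0.18 for the S1 and S2 score, -0.28 to -0.05 for the other-cell score and -0.38 to -0.07 for the S3 score. The S3 score includes Slc5a1, which the knockout lowers. Genes near 0 changed sign: Slc2a1 was 0.0366 rescaled without mitochondrial genes, 0.0605 with the other-cell score and 0.000204 with the S1 and S2 score as a covariate; Slc5a9 was -0.0848 with array weights and -0.15 without the 3 libraries; Slc5a3 was 0.20 with the other-cell score and 0.23 without the 3 libraries; Slc5a8 was -0.001514 and Slc5a12 was 0.19 with the other-cell score; and Agt was -0.0768 and mt-Nd2 -0.0607 without the 3 libraries. Without single libraries Slc2a1 ranged from -0.19 to 0.13, Slc5a3 from -0.39 to 0.45, Slc2a4 from -0.64 to 0.0815, Slc5a11 from -0.0063 to 0.36, Slc5a12 from -0.89 to 0.10, Slc5a8 from -0.0549 to 0.48, Agt from -0.0166 to 0.34 and mt-Nd2 from -0.0304 to 0.522. Ralgapa2 passed with the library number as a covariate (limma adjusted p = 0.0342). The cause of these changes was not tested. The median log2 change of all tested genes stayed between -0.01 and 0.05. No paired analysis was possible because the titles give every library a number of its own, so the groups share no replicate number.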
